A study of Mus musculus with 78 samples.

Results

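The comparison is between the epiblast and the visceral endoderm of the mouse embryo at embryonic day 5.5 (E5.5), soon after implantation. Its members were the 4 RNA-seq libraries labelled E5.5 epiblast (2 libraries) and E5.5 visceral endoderm (2 libraries), out of 30 RNA-seq libraries and 78 samples in the series. They were chosen by those labels, not by any measured value. All embryos had C57BL/6N mothers and DBA/2N fathers that had mated naturally, with E0.5 counted from the vaginal plug, so both tissues share the same hybrid background, and no mutation or treatment is named for them. The series follows methylation, expression and chromatin folding as the first lineages form. Expression was deposited as FPKM (fragments scaled to transcript length and to the mapped fragments of the library) in a table of 22 in vivo libraries, 2 for each of 11 groups. The epiblast and visceral endoderm of E6.5, again 2 libraries each from the same cross, are used below to ask whether the tissue difference changes in a day.

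The epiblast is the pluripotent layer that gives rise to the body of the embryo. The visceral endoderm is an extraembryonic epithelium that wraps it, descends from the primitive endoderm and contributes little to the body. It takes up maternal material by endocytosis, digests it in lysosomes, makes serum proteins as the liver later does, and at its anterior side secretes inhibitors of Nodal and Wnt that place the body axis.

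Most marker genes went with the labels. The epiblast libraries held Pou5f1, the core pluripotency factor also called Oct4, at 455.9 and 254.7 FPKM, and the visceral endoderm libraries at 0.277 and 0.490. Pim2, a serine/threonine kinase of growth and survival, stood at 705.9 and 714.7 FPKM in epiblast against 3.84 and 9.42. Ttr, the transthyretin that carries retinol and thyroid hormone, ran the other way, at 1.90 and 3.52 FPKM in epiblast and 897.8 and 1149 in visceral endoderm. Gata4, Gata6, Sox17, Foxa2 and Hnf4a, transcription factors of endoderm, lay at or below 0.152 FPKM in both epiblast libraries and between 8.44 and 37.2 in visceral endoderm. No library of either tissue overlapped the other at these genes. Fgf5, a growth factor also used as an epiblast marker, did overlap and was not called. It was at 53.2 and 36.3 FPKM in epiblast and 21.3 and 50.5 in visceral endoderm (log2 difference 0.41, SE 0.504, limma adjusted p = 0.524).

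Promoters of 4 genes that mark the tissues are shown, because they are among the 12 largest differences in either direction and hold letters of known regulatory motifs. Each is the 250 bases before the start of the gene in RefSeq, build GRCm38.p6, on the gene's own strand. That build is not the mm9 build used for the expression values, so the windows serve as sequence only. Of the 12 genes highest in epiblast relative to visceral endoderm 10 had a window, and of the 12 lowest 8 had a window that was searched. Searched on both strands were GTTAAT (the core of a site for HNF1 factors, in 6.43% of 32851 promoter windows), AAAGTCCA (HNF4, 1.01%), AGATAA (for GATA factors, 9.99%), ATGCAAAT (the octamer bound by POU factors, 1.6%) and the TATA box, TATAAA (12.4%). Capitals mark matches, and a match on the opposite strand appears as its reverse complement. Pim2 (chrX:7878056-7878305, plus strand) holds the octamer at 2 places. Afp (chr5:90490464-90490713, plus strand) and Apoc2 (chr7:19677942-19678191, minus strand) hold the HNF1 letters, and Afp and Rbp4 (chr19:38124812-38125061, minus strand, 1 of 2 annotated starts) hold the TATA letters.
Pim2: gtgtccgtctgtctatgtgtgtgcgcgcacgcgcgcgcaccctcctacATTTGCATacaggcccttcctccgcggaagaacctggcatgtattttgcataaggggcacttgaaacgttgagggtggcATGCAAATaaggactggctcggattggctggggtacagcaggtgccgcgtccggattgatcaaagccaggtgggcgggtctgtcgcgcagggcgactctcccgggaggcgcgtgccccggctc
Afp: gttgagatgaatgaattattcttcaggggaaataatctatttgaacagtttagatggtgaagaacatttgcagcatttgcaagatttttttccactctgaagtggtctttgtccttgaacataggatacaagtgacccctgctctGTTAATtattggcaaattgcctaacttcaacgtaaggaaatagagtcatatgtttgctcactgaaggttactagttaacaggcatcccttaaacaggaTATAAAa
Apoc2: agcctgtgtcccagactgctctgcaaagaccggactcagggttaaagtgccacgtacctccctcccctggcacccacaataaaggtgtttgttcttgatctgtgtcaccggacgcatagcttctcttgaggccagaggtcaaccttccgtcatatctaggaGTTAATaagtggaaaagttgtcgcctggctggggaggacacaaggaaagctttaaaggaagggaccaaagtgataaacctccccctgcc
Rbp4: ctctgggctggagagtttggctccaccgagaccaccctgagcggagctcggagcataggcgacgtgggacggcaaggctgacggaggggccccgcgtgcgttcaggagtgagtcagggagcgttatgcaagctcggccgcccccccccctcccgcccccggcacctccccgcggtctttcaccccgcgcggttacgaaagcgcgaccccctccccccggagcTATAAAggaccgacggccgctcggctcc
Among the genes higher in epiblast the octamer was found in 1 of 10, Pim2, with the TATA letters in Ifitm2 and Snrpn. Among those higher in visceral endoderm the HNF1 letters were found in 2 of 8, the TATA letters in 3 and the octamer in 1. That gene, Srgn, has the TATA letters too, but in the window of another annotated start. A gene with more than 1 annotated start was counted when any of its windows matched, while the shares above are per window. The HNF4 and GATA letters were in none of either set. A match describes these letters alone and no binding was measured.

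Replicates resembled each other closely. Over log2(FPKM+1), the pair of libraries correlated with r = 0.981 in epiblast and 0.975 in visceral endoderm, as a description across genes. Between 9079 and 9981 genes reached 1 FPKM in a library. FPKM carry no read counts, so depth is unknown. The labels do not say that paired libraries come from separate litters, so the p-values measure the spread between libraries as labelled. That spread was shared over the 11 groups of the table, not taken from the E5.5 libraries alone. The log2 difference between paired libraries had a standard deviation of 0.568 in epiblast and 0.602 in visceral endoderm. Over the groups it ran from 0.268 to 0.899. In bulk tissue, fewer cells of a type and less RNA per cell cannot be told apart.

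A gene was called when limma gave an adjusted p below 0.05 and a difference of at least 1 on the log2(FPKM+1) scale, epiblast minus visceral endoderm, which understates differences of low genes. Of 12874 genes tested, 3904 (30.3%) were called higher in epiblast and 1458 (11.3%) higher in visceral endoderm. The libraries of the tissues did not overlap at 5343 of these 5362 genes, and 3725 calls stayed when each of the 4 libraries was left out in turn. Among all 12874 genes tested, the tissues did not overlap at 6362 genes higher in epiblast and 2842 higher in visceral endoderm. Lack of overlap was thus common and adds little to a call. The visceral endoderm libraries summed to 272055 and 329462 FPKM and the epiblast libraries to 438472 and 374468, and the median difference over all genes tested was 0.41. Quantile normalization, which gives every library the same distribution, moved that median to 0.06 and the calls to 2510 higher in epiblast (19.5%) and 2329 higher in visceral endoderm (18.1%). All 1458 genes called higher in visceral endoderm were also called so after quantile normalization, and 2509 of the 3904 called higher in epiblast. Differences are therefore read below against the median of 0.41, and counts or calls that change under quantile normalization are given with both values. Counts of each list are to be read against the shares of all genes, 30.3% and 11.3% as deposited, 19.5% and 18.1% after quantile normalization.

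**Figure D1:**
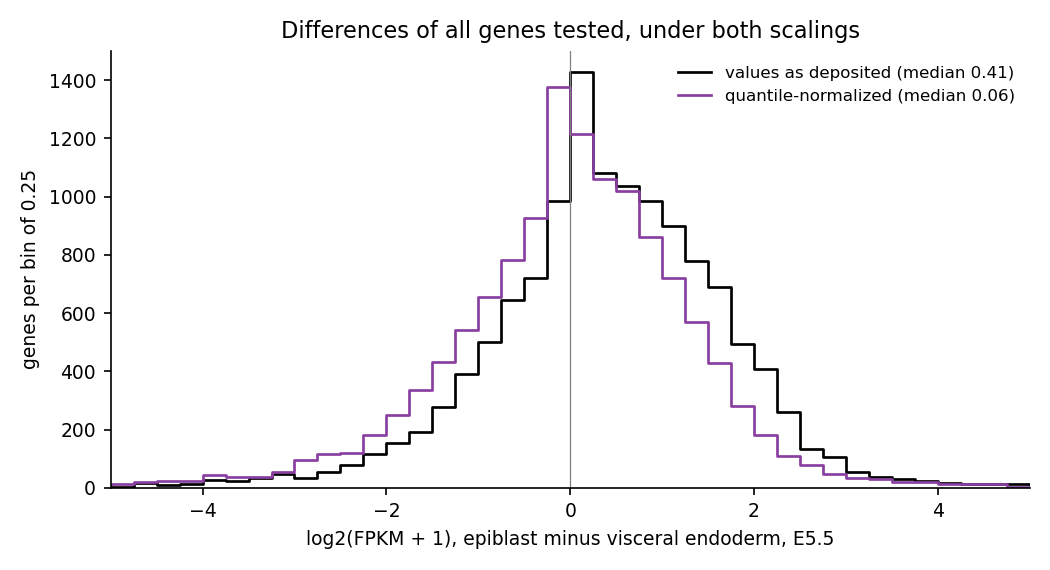
Number of genes tested per 0.25-wide bin of the E5.5 difference (log2 of FPKM + 1, epiblast minus visceral endoderm) as deposited (black) and after quantile normalization (purple). The medians are 0.41 and 0.06, and bins beyond 5 on either side are not drawn.

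The 12 genes furthest apart in favour of epiblast were Pou5f1, Ifitm3, Tdgf1, Ifitm2, Prps1, Pim2, Slc7a3, Snrpn, Crabp2, Mid1ip1, Pla2g1b and Fancl. Tdgf1, the Nodal co-receptor Cripto, stood at 172.0 and 122.2 FPKM in epiblast and 0 and 0.130 in visceral endoderm (log2 difference 7.10, SE 0.731, limma adjusted p = 6.21e-07). Prps1, which makes the ribose phosphate for nucleotide synthesis, was at 132.1 and 119.2 FPKM against 0.124 and 0.254 (6.74, SE 0.370, limma adjusted p = 4.46e-10). Slc7a3, a carrier of cationic amino acids, was at 164.7 and 71.9 FPKM against 0.204 and 0.207 (6.51, SE 0.723, limma adjusted p = 1.45e-06). In each of the 3 the lower epiblast library lay above both visceral endoderm libraries, which the choice of these 12 genes required. Ifitm2 and Ifitm3, interferon-induced membrane proteins whose close sequences can share reads, ran at 370.4 and 283.8 and at 129.1 and 144.7 FPKM in epiblast. In visceral endoderm Ifitm2 was at 1.52 and 1.603 FPKM and Ifitm3 was listed at 0 in both libraries. Crabp2, which delivers retinoic acid to its receptors, and Pla2g1b, a secreted phospholipase, were likewise listed at 0 in both visceral endoderm libraries, with 78.5 and 70.3 and with 42.4 and 66.8 FPKM in epiblast. Mid1ip1, a regulator of fatty acid synthesis, had 90.8 and 53.8 against 0.119 and 0 FPKM. Fancl, a ubiquitin ligase of the Fanconi anaemia repair pathway, had 48.1 and 56.2 FPKM in epiblast and 0.00159 and 0.00162 in visceral endoderm.

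The 12 genes furthest apart in favour of visceral endoderm were Ttr, Apom, Apoa1, Afp, H19, Srgn, Apoc2, Cyp26a1, Ctsh, Rbp4, Amot and Pga5. Apom, an apolipoprotein of high-density lipoprotein, was at 1.65 and 2.59 FPKM in epiblast and 545.0 and 873.2 in visceral endoderm (log2 difference -7.81, SE 0.466, limma adjusted p = 1.17e-09). Srgn, the proteoglycan core serglycin, was at 1.97 and 4.23 FPKM against 341.6 and 774.1 (-7.03, SE 0.533, limma adjusted p = 1.75e-08). Amot, the angiomotin that acts in Hippo signalling, was at 1.99 and 2.89 FPKM against 361.1 and 268.9 (-6.52, SE 0.529, limma adjusted p = 3.98e-08). For all 3 both visceral endoderm libraries stood above both epiblast libraries, which the choice of these 12 genes required. Pga5, a pepsinogen, was at 1.59 and 1.90 FPKM in epiblast and 144.1 and 344.0 in visceral endoderm. Apoa1, the main protein of high-density lipoprotein, had the highest visceral endoderm values of the 12, 1542 and 2574 FPKM, and 8.03 and 11.53 in epiblast.

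**Figure D2:**
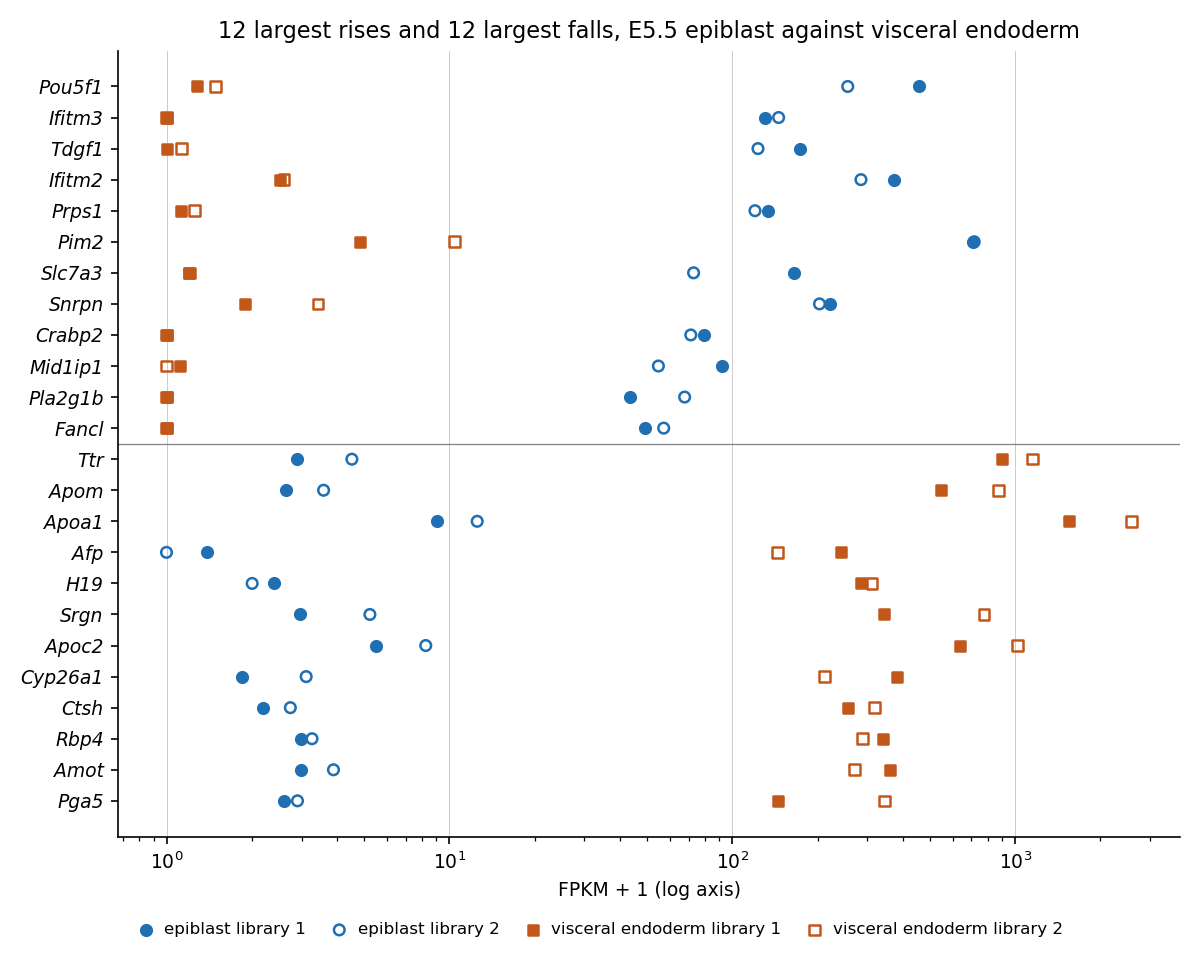
FPKM + 1 on a log axis in each of the 2 epiblast libraries (blue circles) and 2 visceral endoderm libraries (orange squares) for the 12 largest differences in either direction. The genes were picked so that the tissues do not overlap, and Ifitm3, Crabp2 and Pla2g1b sit at 1 in visceral endoderm because they are listed at 0.

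Of 6 core pluripotency genes, 4 were called higher in epiblast and 0 in visceral endoderm, with a median difference of 2.94, where the background of calls toward epiblast was 30.3% of all genes. Nanog stood at 10.8 and 10.2 FPKM in epiblast and was listed at 0 in both visceral endoderm libraries. Sox2, the partner of Pou5f1 on DNA, was at 4.09 and 7.26 FPKM against 0.588 and 0 (log2 difference 2.36, SE 0.301, limma adjusted p = 6.28e-06). The exceptions were Sall4, a zinc finger factor, at 127.5 and 105.9 against 69.7 and 98.8 FPKM (limma adjusted p = 0.0856), and the RNA-binding protein Lin28a, at 64.1 and 39.1 against 27.6 and 38.7 FPKM (limma adjusted p = 0.127). Both genes thus had substantial FPKM in visceral endoderm too. Genes of the formative state, the stage between naive and primed pluripotency, gave 8 of 14 called higher in epiblast, 1 higher in visceral endoderm and 5 not called (6 and 3 called after quantile normalization). Pou3f1, a POU factor of early epiblast, was at 9.62 and 8.82 FPKM and listed at 0 in visceral endoderm. Utf1, a chromatin factor of embryonic stem cells, was at 404.3 and 483.2 against 44.8 and 93.5 FPKM (2.75, SE 0.394). Lin28b, a relative of Lin28a, was at 9.56 and 7.49 against 0.597 and 0.346 FPKM (2.69, SE 0.286). Sox4 was the gene called against the direction of that list, at 3.17 and 3.53 FPKM in epiblast and 16.4 and 13.2 in visceral endoderm (-1.85, SE 0.243).

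Of 17 naive pluripotency genes, 6 were called higher in epiblast, 2 higher in visceral endoderm and 9 were not called, with a median of 0.51 (5 and 3, median 0.06, after quantile normalization). These shares are near the background of 30.3% and 11.3%, so they set the list apart from other genes in neither direction. Dppa4 and Dppa2, chromatin factors encoded side by side, stood at 63.0 and 76.1 and at 36.6 and 41.4 FPKM in epiblast. Their visceral endoderm libraries held 0.747 and 3.83 FPKM of Dppa4 (log2 difference 4.60, SE 0.352) and 2.16 and 7.25 of Dppa2 (2.97, SE 0.359). Dppa5a, an RNA-binding protein of early embryos, was among the most abundant transcripts of its list, at 1211 and 1761 against 100.5 and 428.1 FPKM (2.81, SE 0.478). Called higher in visceral endoderm were the transcription factors Tfcp2l1, at 0.234 and 0.0377 against 1.81 and 5.20 FPKM, and Tbx3, at 0.348 and 0.0356 against 2.16 and 5.08.

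Endoderm transcription factors differed in the other direction. Of 14 tested, 11 were called higher in visceral endoderm, 0 in epiblast and 3 were not called, against a background of 11.3% toward visceral endoderm, and the median was -3.05. Foxa2, a factor that opens chromatin in endoderm, had 0.126 and 0 FPKM in epiblast and 37.2 and 33.3 in visceral endoderm (log2 difference -5.09, SE 0.280, limma adjusted p = 4.46e-10). Foxa1, its relative, had 0.0812 and 0.232 against 15.8 and 10.9 FPKM (-3.62, SE 0.213). Hnf4a, which drives liver and visceral endoderm genes, had 0.0583 and 0.124 against 9.39 and 21.5 FPKM (-3.81, SE 0.328). The second visceral endoderm library held the higher value there, and even the lower one stood far above epiblast.

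The secreted products were more abundant. Of 14 genes of apolipoproteins and lipid export, 12 were called higher in visceral endoderm and 0 in epiblast, with a median of -4.64. Apob, the structural protein of the lipoproteins that export fat, was at 0.0442 and 0.149 FPKM in epiblast and 52.0 and 43.8 in visceral endoderm (log2 difference -5.48, SE 0.243, limma adjusted p = 5.12e-11). Mttp, which loads lipid onto Apob, was at 1.29 and 0.296 against 41.9 and 55.2 FPKM (-4.83, SE 0.274). Apoa4 was at 0.744 and 0.843 against 100.1 and 208.7 FPKM (-6.34, SE 0.307), and Apoc3 was listed at 0 in both epiblast libraries and at 29.1 and 14.9 FPKM in visceral endoderm. So the carrier, the loading enzyme and the surface proteins of lipoproteins were called in the same direction. Among 18 genes listed as serum carriers and clotting proteins, 12 were called higher in visceral endoderm and 0 in epiblast (median -2.66). Amn and Trap1a, which are not serum proteins, are on the list and among those calls, and Amn is counted again below. Trf, the iron carrier transferrin, was at 1.48 and 3.11 FPKM against 55.9 and 91.5 (-4.51, SE 0.308), and Afp, the fetal counterpart of albumin, at 0.386 and 0 against 241.6 and 143.4 (-7.31, SE 0.386). Fgb, a chain of fibrinogen, was listed at 0 in both epiblast libraries and stood at 21.03 and 24.2 FPKM in visceral endoderm. Alb, the albumin gene of the later liver, was listed at 0 in all 4 libraries and is named after its values were seen.

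Receptors of endocytosis and the lysosome followed. Of 17 genes listed as endocytic receptors and adaptors, 14 were called higher in visceral endoderm and 1 higher in epiblast (15 and 0 after quantile normalization, median -2.58). That list also holds the transcription factor Hnf4a, the lysosomal protease Lgmn, the chloride channel Clic6 and the iron exporter Slc40a1, all called higher in visceral endoderm. Hnf4a and Amn are thus counted in more than 1 list. Cubn and Amn, which together form the receptor cubam that takes up protein and vitamin B12 complexes, had 0.185 and 0.583 against 58.5 and 115.1 FPKM (log2 difference -5.92, SE 0.325) and 1.31 and 1.31 against 166.1 and 205.9 FPKM (-6.33, SE 0.413). Dab2, the adaptor that gathers such receptors in clathrin pits, had 6.31 and 5.92 against 161.1 and 387.8 FPKM (-5.14, SE 0.385). Folr1, a folate receptor, had 12.9 and 17.0 against 184.8 and 264.3 FPKM (-3.81, SE 0.271). Cubn, Amn, Dab2 and Folr1 thus stood high in both visceral endoderm libraries. Lrp2 and Fcgrt of the same list, named after their values were seen, did so only in the second. Lrp2 was at 3.40 and 3.74 against 4.89 and 56.3 FPKM, and Fcgrt at 0.473 and 0.688 against 2.15 and 27.3. Both calls ended without the second visceral endoderm library. Of 25 lysosomal enzymes and membrane proteins, 17 were called higher in visceral endoderm, 0 in epiblast and 8 were not called (median -1.42, and 18 and 0 called after quantile normalization). The cathepsins, proteases of the lysosome, led the list. Ctsh was at 1.19 and 1.74 FPKM in epiblast and 254.9 and 316.9 in visceral endoderm (-6.86, SE 0.306, limma adjusted p = 5.12e-11), and Ctsl at 102.6 and 45.5 against 516.5 and 930.5 FPKM (-3.32, SE 0.344). Cd63, a membrane protein of late endosomes, was at 15.3 and 11.6 against 99.9 and 123.3 FPKM (-2.96, SE 0.254).

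**Figure D3:**
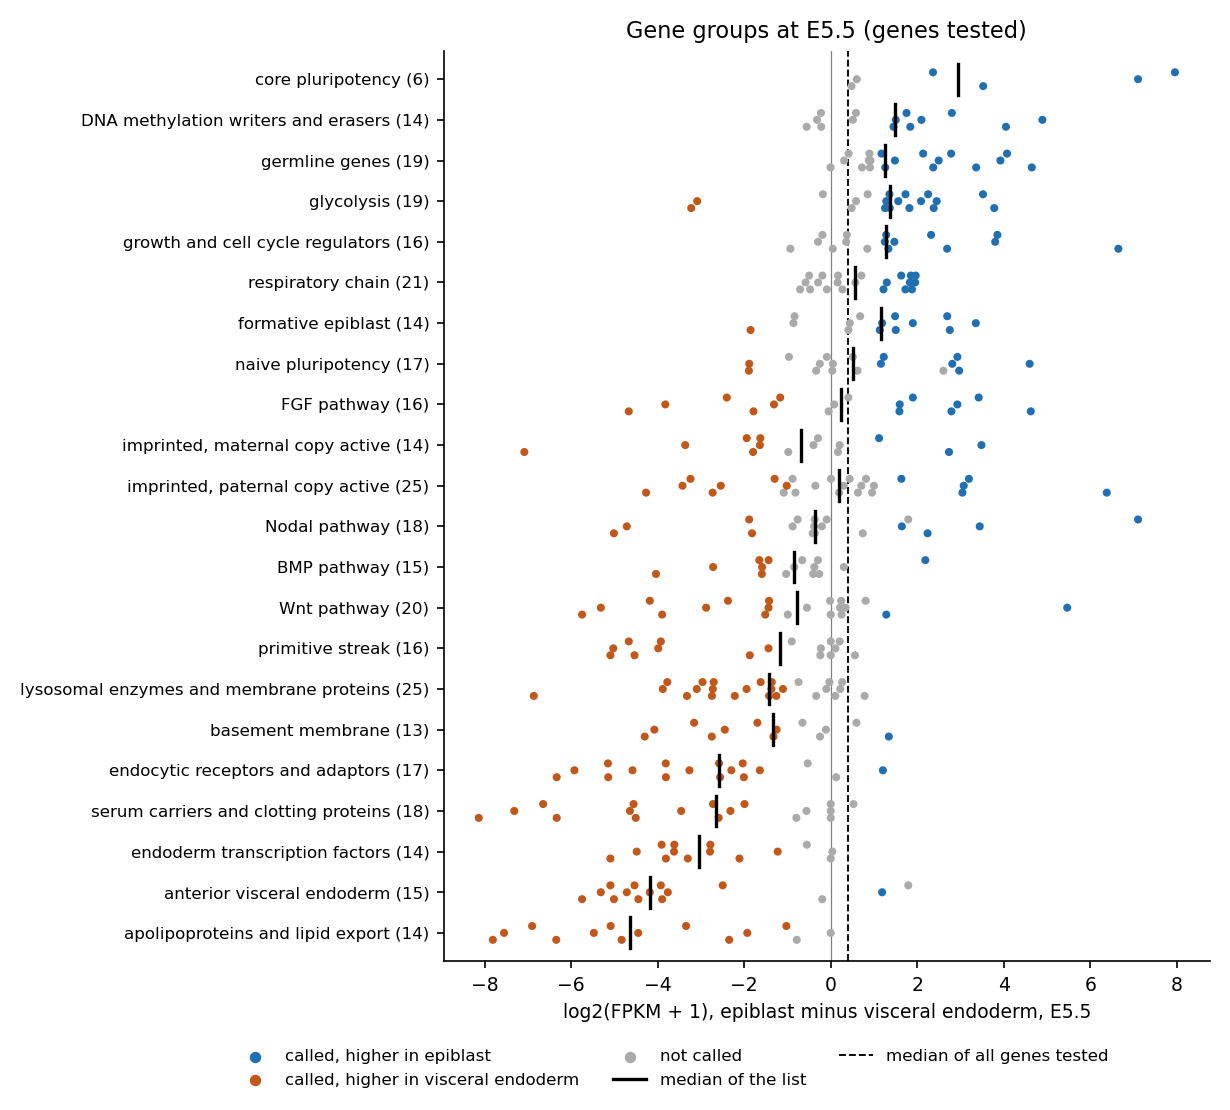
E5.5 differences (log2 of FPKM + 1, epiblast minus visceral endoderm) of the tested members of 22 gene lists, with the number tested in parentheses. Blue and orange points were called, grey points were not, the short black line is the median of a list and the dashed line the median of all genes tested, 0.41.

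The anterior visceral endoderm is a small group of cells that moves forward and sends out inhibitors, and most of its genes were well above epiblast levels at E5.5. Of 15 tested, 12 were called higher in visceral endoderm and 1, Otx2, higher in epiblast, and the median was -4.18. Cer1, a secreted inhibitor of Nodal, BMP and Wnt, stood at 0.236 and 2.29 FPKM in epiblast and 114.5 and 35.5 in visceral endoderm (log2 difference -5.01, SE 0.470, limma adjusted p = 2.09e-07). Lefty1, a Nodal inhibitor, stood at 0.863 and 0 against 72.0 and 16.5 FPKM (-4.71, SE 0.566, limma adjusted p = 3.44e-06), and Gsc, a homeobox factor, was listed at 0 in epiblast and stood at 25.7 and 7.66 FPKM in visceral endoderm. In these 3 genes the first visceral endoderm library held more than 3 times the second. Dkk1, a Wnt antagonist, at 58.8 and 31.7 FPKM, and Hhex, a homeobox factor, at 33.0 and 16.0 FPKM, also had their higher value in the first library. Lhx1 (34.5 and 30.5 FPKM) and Hesx1 (28.8 and 27.3 FPKM), homeobox factors of the same cells, were nearly level between the libraries. Otx2, which both tissues need, was at 118.2 and 90.1 FPKM in epiblast and 54.9 and 36.5 in visceral endoderm. Its call, 1.19, ended without the first epiblast library (0.99) and without the second visceral endoderm library (0.90), and under quantile normalization.

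Genes of the Nodal pathway were split between the tissues. The list of 18 gave 4 called higher in epiblast, 4 higher in visceral endoderm and 10 not called (3 and 6 called after quantile normalization). The ligand Nodal itself was at 24.2 and 8.78 FPKM in epiblast and 27.0 and 14.7 in visceral endoderm, ranges that overlap (log2 difference -0.42, SE 0.464, limma adjusted p = 0.473). Its co-ligands Gdf3, at 20.3 and 16.7 against 2.08 and 4.48 FPKM (2.24, SE 0.265), and Gdf1, at 14.7 and 9.34 against 0 and 0.376 FPKM (3.44, SE 0.3004), were higher in epiblast, as was the co-receptor Tdgf1. Smad2, which carries the signal to the nucleus, did not pass the test, at 4.24 and 2.53 against 3.91 and 5.41 FPKM. Foxh1, its partner on DNA, was at 88.7 and 78.2 against 25.9 and 26.1 FPKM (1.64, SE 0.358), a call that ended under quantile normalization. Furin, a protease that matures the ligand, was at 1.01 and 0.130 against 5.03 and 4.14 FPKM (-1.89, SE 0.341). Lefty2, the inhibitor best known from the epiblast, was at 2.63 and 3.16 against 0.147 and 0.0996 FPKM and did not pass the test (limma adjusted p = 0.0640). In a fit of only the groups compared its limma adjusted p was 1.28e-03.

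Ligands and receptors of the FGF pathway were divided between the tissues, with 7 of 16 genes called higher in epiblast and 6 higher in visceral endoderm (6 and 6 after quantile normalization, medians 0.24 and -0.45). Fgf4, the ligand that primitive endoderm needs, stood at 6.51 and 7.29 FPKM in epiblast and 0.0783 and 0 in visceral endoderm (log2 difference 2.93, SE 0.230, limma adjusted p = 2.69e-08), and Fgf15 at 36.0 and 17.6 against 0.137 and 0 FPKM (4.62, SE 0.497). Fgf8 and Fgf10 ran the other way, with 2.40 and 2.38 against 105.9 and 68.5 FPKM (-4.67, SE 0.297) and 0.277 and 0.118 against 14.3 and 17.7 FPKM (-3.82, SE 0.271). The tissues did not overlap at these 4 ligands. They did at Fgf5, a further ligand of the list, which was not called (0.41, limma adjusted p = 0.524). Of the receptors, also named after their values were seen, Fgfr1 was higher in epiblast (1.59, SE 0.311). Fgfr2, Fgfr3 and Fgfr4 were higher in visceral endoderm (-1.31, -1.79 and -2.40), and the call of Fgfr2 ended when some library was left out. Of the genes that FGF signalling induces, Etv5, a transcription factor, had 119.3 and 111.2 against 6.73 and 14.3 FPKM (3.42, SE 0.321), and Dusp6, a phosphatase that dampens the pathway, had 73.9 and 52.6 against 8.95 and 7.45 FPKM (2.79, SE 0.335). Other genes induced by the pathway, named after their values were seen, did not all go that way. Spry1 and Spry4, inhibitors of the pathway, had differences of -0.05 and 0.08 and were not called, and the inhibitor Spred1 was higher in visceral endoderm, at 1.37 and 0.925 against 3.77 and 3.82 FPKM (-1.17, SE 0.324). The call of Spry2 (1.59) ended under quantile normalization, without the first epiblast library (0.86) and without the second visceral endoderm library (1.31).

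The Wnt list of 20 gave 2 genes called higher in epiblast and 9 higher in visceral endoderm (2 and 11 after quantile normalization). Higher in visceral endoderm were the secreted antagonists Sfrp5, at 0.357 and 0.310 against 82.0 and 60.7 FPKM (log2 difference -5.75, SE 0.269), and Sfrp1, at 3.11 and 2.19 against 60.8 and 46.0 (-3.90, SE 0.286). The receptors Fzd5 and Fzd8 were at 39.3 and 18.5 and at 12.8 and 4.00 FPKM in visceral endoderm, with no epiblast library above 0.789. Lef1, which brings the Wnt signal to DNA, was by contrast at 39.96 and 56.6 FPKM in epiblast and 0.210 and 0 in visceral endoderm (5.46, SE 0.399). In the BMP list of 15, 1 was called higher in epiblast and 6 higher in visceral endoderm (1 and 9 after quantile normalization). Bmp2 was listed at 0 in epiblast and stood at 19.6 and 12.1 FPKM in visceral endoderm. Smad1, which BMP receptors activate, was at 2.00 and 2.25 against 17.7 and 21.7 FPKM (-2.72, SE 0.266). The target Id3 was the gene called higher in epiblast, at 304.6 and 165.2 against 43.0 and 54.8 FPKM (2.19, SE 0.375). The targets Id1 and Id2, named after their values were seen, did not go with it. Id1, at 33.1 and 28.5 against 33.8 and 119.4 FPKM (-1.03), was called higher in visceral endoderm only after quantile normalization (-1.76). Id2 was called under neither scaling (0.30 and -0.43).

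Genes of the primitive streak, which forms in the posterior epiblast a day later, were higher in visceral endoderm at this stage or not called. Of 16 tested, 8 were called higher in visceral endoderm and 0 in epiblast (median -1.17, and 9 and 0 called after quantile normalization). Eomes, a T-box factor, had 1.83 and 1.42 FPKM in epiblast and 33.1 and 49.5 in visceral endoderm, and Mixl1, a homeobox factor, 0.174 and 0.251 against 30.1 and 49.2. Several of the list are also genes of visceral endoderm, among them Foxa2, Lhx1 and Gsc, which stand in other lists used here.

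Writers of DNA methylation were higher in epiblast. Of 14 genes that write, keep or remove the mark, 8 were called higher in epiblast and 0 in visceral endoderm, with a median of 1.48 (7 and 0, median 0.92, after quantile normalization). Dnmt3a, a de novo methyltransferase, was at 97.9 and 101.5 FPKM in epiblast and 2.84 and 8.63 in visceral endoderm (log2 difference 4.05, SE 0.404, limma adjusted p = 4.41e-07). Dnmt3l, its cofactor without an active site, was at 71.1 and 138.5 against 0.601 and 6.14 FPKM (4.89, SE 0.534, limma adjusted p = 1.21e-06). Dnmt3b, the other de novo enzyme, was at 152.6 and 192.6 against 52.1 and 68.8 FPKM (1.503, SE 0.391, limma adjusted p = 3.62e-03). It was thus the de novo enzyme with the most FPKM in visceral endoderm, and its call ended under quantile normalization. Of the genes that keep methylation through replication, Dnmt1 was at 40.3 and 34.8 against 9.18 and 6.96 FPKM (2.09, SE 0.240), Uhrf1 at 99.0 and 87.5 against 26.9 and 23.8 (1.84, SE 0.243), and the remodeller Hells at 175.3 and 192.6 against 24.2 and 27.0 (2.80, SE 0.354). Tet1, which oxidises the mark, was at 11.1 and 14.98 against 2.35 and 4.11 FPKM (1.75, SE 0.308), while Tet3 had 1.33 and 1.31 against 1.83 and 1.57 and Tet2 stayed at or below 0.520 in all 4 libraries. Trim28 and Zfp57, which guard methylation at imprinted genes, did not pass the test, at 37.2 and 75.7 against 55.6 and 69.8 FPKM and at 8.96 and 7.31 against 13.6 and 11.3 FPKM.

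Germline genes, many of them known to be silenced by promoter methylation, gave 11 of 19 called higher in epiblast and 0 in visceral endoderm (median 1.26, and 9 and 0 called after quantile normalization). Zbp1, a sensor of nucleic acids, Tsx, an X-linked testis gene, and Mael, which acts in transposon silencing, were listed at 0 in both visceral endoderm libraries. In epiblast they stood at 13.8 and 18.1, 17.4 and 33.0, and 11.4 and 7.505 FPKM. Hormad1, a protein of meiotic chromosomes, was at 14.2 and 19.2 FPKM against 0 and 0.344 (log2 difference 3.92, SE 0.420). The Polycomb list changed sides with the scaling, from 8 of 15 called higher in epiblast and 2 higher in visceral endoderm to 4 and 5 after quantile normalization. Cbx2, which reads the Polycomb mark, at 21.4 and 13.9 against 2.94 and 2.86 FPKM (2.23, SE 0.278), and Bmi1, a core subunit, at 1.39 and 0.356 against 8.62 and 11.3 FPKM (-2.60, SE 0.347), were called under both. Of 11 genes tied to the X chromosome, 4 were called higher in epiblast (2 after quantile normalization, and 2 kept without each library). Xist, the RNA that coats the inactive X and named here after its values were seen, was at 4.73 and 2.42 FPKM in epiblast and 48.7 and 1.51 in visceral endoderm. A single visceral endoderm library thus stood apart, and the gene did not pass the test (limma adjusted p = 0.302).

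Imprinted genes did not move together. Of 14 tested genes expressed from the maternal copy, 3 were called higher in epiblast and 6 higher in visceral endoderm (2 and 7 after quantile normalization, medians -0.69 and -0.96). For the 25 expressed from the paternal copy the counts were 5 and 7 (5 and 10 after quantile normalization, medians 0.19 and -0.06). Over all genes 30.3% and 11.3% were called, and 19.5% and 18.1% after quantile normalization. H19, a maternally expressed noncoding RNA, was at 1.41 and 1.01 FPKM in epiblast and 283.2 and 310.5 in visceral endoderm (log2 difference -7.08, SE 0.279, limma adjusted p = 2.43e-11). Its neighbour Igf2, a growth factor expressed from the paternal copy, lay in the same direction, at 0.417 and 0.180 against 27.5 and 20.8 FPKM (-4.27, SE 0.275, limma adjusted p = 2.88e-09). Phlda2, which restrains placental growth, at 21.6 and 21.5 against 1.21 and 0.847 FPKM (3.48, SE 0.323), and Ascl2, a trophoblast factor, at 8.59 and 8.52 against 0.781 and 0.160 FPKM (2.73, SE 0.302), were the maternally expressed genes higher in epiblast under both scalings. Genes of neighbouring imprinted domains thus differed in opposite directions, since H19, Igf2, Ascl2 and Phlda2 lie close together on the same chromosome. Also higher in visceral endoderm were Gnas, a G protein subunit, at 66.4 and 53.0 against 176.8 and 194.1 FPKM (-1.63, SE 0.334), and the growth restrainers Grb10, at 17.2 and 5.24 against 52.9 and 30.1 FPKM (-1.94, SE 0.409), and Igf2r, at 1.97 and 0.959 against 5.42 and 7.77 (-1.64, SE 0.344). The antisense RNA Airn overlaps Igf2r, and without strand their reads cannot be told apart.

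Within the Snrpn domain the called genes were higher in epiblast. Snrpn, a small nuclear ribonucleoprotein, stood at 220.6 and 202.2 against 0.897 and 2.43 FPKM (log2 difference 6.38, SE 0.467, limma adjusted p = 1.20e-08) and Snurf, whose transcript overlaps it and can share reads, at 13.4 and 11.2 against 0.725 and 0.495 (3.04, SE 0.355). Ndn was at 12.8 and 8.04 against 0.760 and 0 FPKM (3.07, SE 0.317), and Magel2 and Mkrn3 had differences of 0.71 and 0.95, under the 1 that a call needs (limma adjusted p = 6.90e-03 and 5.24e-03). Ube3a, the maternally expressed gene of that domain, was at 27.7 and 15.4 against 8.67 and 9.35 FPKM, and its call ended under quantile normalization and without any of 3 of the libraries (0.71 without the first epiblast library, 1.07 and 1.17 without the first and the second of visceral endoderm). In the Dlk1 domain the noncoding RNAs Meg3, at 8.18 and 9.48 against 110.7 and 90.2 FPKM (-3.36, SE 0.429), and Rian, at 2.51 and 2.25 against 14.8 and 7.72 (-1.79, SE 0.310), and the paternally expressed Rtl1, at 0.530 and 0.690 against 8.37 and 8.35 (-2.54, SE 0.259), were all higher in visceral endoderm. Dlk1 itself stayed at or below 0.668 FPKM in all 4 libraries. Peg10 and its neighbour Sgce were at 6.77 and 5.14 and at 16.4 and 11.53 FPKM in visceral endoderm, with no epiblast library above 0.891. Elsewhere, the paternally expressed Nnat, a membrane proteolipid, was at 58.5 and 35.1 against 3.78 and 4.38 FPKM (3.19, SE 0.354), and Sfmbt2, a Polycomb-associated protein, at 0.175 and 0.225 against 10.2 and 10.4 (-3.24, SE 0.309). Peg3 and Mest, at 22.1 and 25.5 against 33.9 and 58.6 and at 99.6 and 51.7 against 305.7 and 77.0 FPKM, were not called as deposited (limma adjusted p = 0.101 and 0.0511) and were called higher in visceral endoderm under quantile normalization. Slc38a4, an amino acid carrier, was at 6.29 and 4.57 against 0.475 and 1.87 FPKM (1.63), a call that ended without the first visceral endoderm library (1.15).

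**Figure D4:**
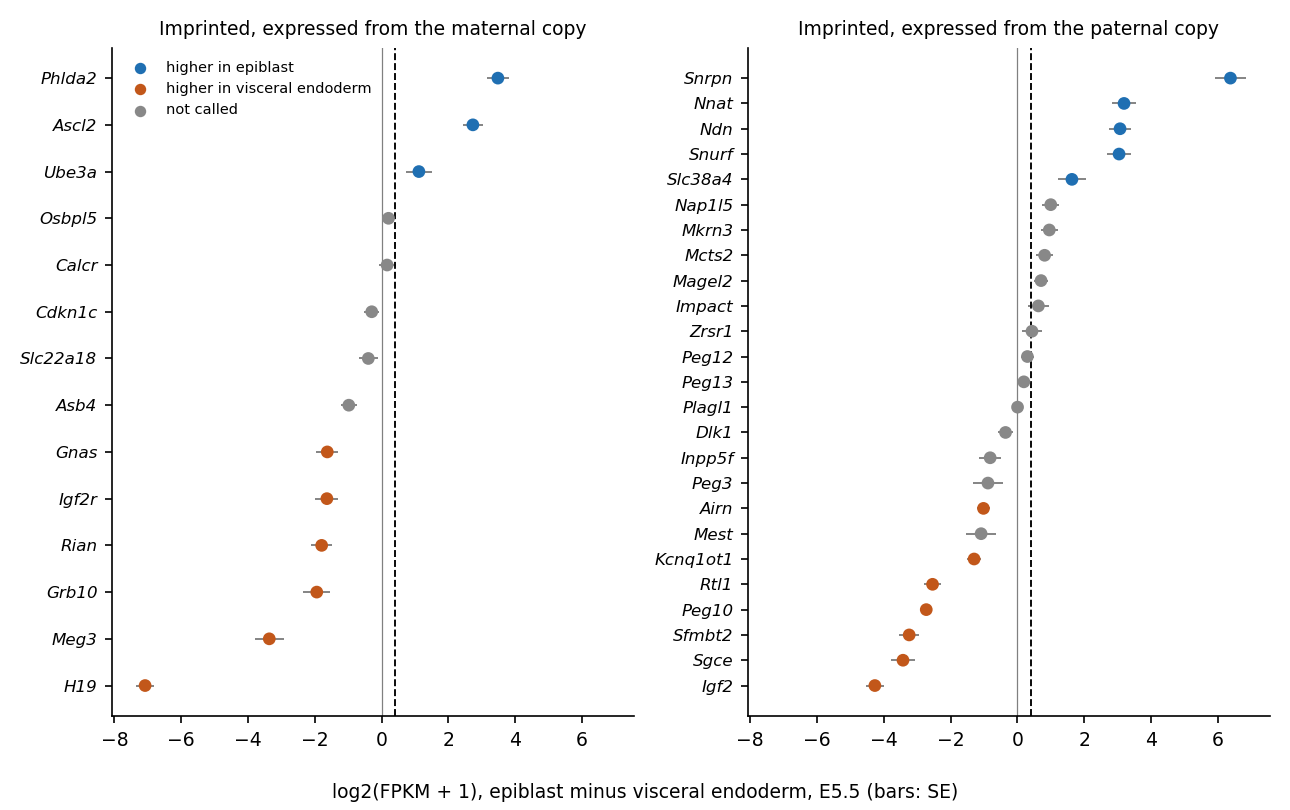
E5.5 difference (log2 of FPKM + 1, epiblast minus visceral endoderm) of each tested imprinted gene expressed from the maternal copy (left) or the paternal copy (right), with bars for 1 SE. Points are coloured by call and the dashed line is the median of all genes tested, 0.41, with H19 lowest and Snrpn highest.

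Glycolysis splits glucose to pyruvate, and the list used here also holds enzymes of lactate and carriers of glucose and lactate. Its genes were mostly higher in epiblast, with 13 of 19 called so and 2 higher in visceral endoderm (10 and 2 after quantile normalization, medians 1.36 and 1.16). Aldoa, the aldolase, was at 1727 and 1867 against 304.6 and 584.4 FPKM (log2 difference 2.09, SE 0.295), Pgam1, a phosphoglycerate mutase, at 1100 and 824.5 against 281.0 and 369.5 (1.56, SE 0.220), and Ldha, which makes lactate, at 1858 and 1746 against 247.2 and 577.8 (2.25, SE 0.319). The genes called the other way were membrane carriers. Slc16a1, a lactate carrier, had 66.3 and 20.7 FPKM in epiblast and 352.9 and 297.1 in visceral endoderm (-3.09, SE 0.387), and Slc2a3, a glucose carrier chosen after its values were seen, 64.0 and 7.64 against 278.2 and 174.7 (-3.22, SE 0.620). Of 21 genes of the respiratory chain, 9 were called higher in epiblast and 0 in visceral endoderm, and 5 and 0 after quantile normalization (medians 0.57 and 0.24). Of all genes, 30.3% were called higher in epiblast as deposited and 19.5% after quantile normalization, and the second count is near that share. Respiratory genes called included Atp5b, at 1417 and 1197 against 250.3 and 451.0 FPKM (1.95, SE 0.298), and Sdha, at 115.9 and 102.1 against 22.7 and 36.8 (1.88, SE 0.355). Cholesterol synthesis had 8 of 17 higher in epiblast and 1 in visceral endoderm (3 and 1 after quantile normalization), with 5 of these calls kept without each library. The count toward epiblast after quantile normalization is near the 19.5% of all genes. Idi1 was at 92.7 and 71.0 against 8.39 and 14.4 FPKM (2.77, SE 0.326).

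Of 13 retinoid genes, 3 were called higher in epiblast and 6 higher in visceral endoderm under either scaling. Rbp4, a carrier of retinol, was at 340.0 and 286.9 FPKM in visceral endoderm against 1.99 and 2.27 in epiblast. Cyp26a1, which breaks retinoic acid down, was at 0.844 and 2.12 against 379.3 and 210.5 FPKM (log2 difference -6.89, SE 0.400). Rarg, a receptor for retinoic acid, was instead at 28.4 and 18.6 FPKM in epiblast and listed at 0 in visceral endoderm, as Crabp2 was. Of 14 iron and heme genes, 3 were called higher in epiblast and 3 higher in visceral endoderm (3 and 4 after quantile normalization). As deposited, the first share lay below the 30.3% of all genes and the second above 11.3%. The transferrin receptor Tfrc was at 49.3 and 25.96 against 4.24 and 3.81 FPKM (2.88, SE 0.402), while transferrin itself was higher in visceral endoderm as given above. Growth and cell cycle regulators gave 9 of 16 higher in epiblast and 0 in visceral endoderm (7 and 1 after quantile normalization, medians 1.27 and 0.55). Myc and Mycn, which drive growth, were at 46.7 and 30.7 against 4.53 and 0.410 FPKM (3.799, SE 0.432) and 77.2 and 51.8 against 9.24 and 15.2 (2.32, SE 0.311). Ccnd1, a cyclin that starts the cell cycle, was at 31.6 and 24.1 against 1.73 and 0.438 FPKM (3.85, SE 0.329). For cytosolic ribosomal proteins, 6 of 26 were higher in epiblast and 1 in visceral endoderm, both shares below the 30.3% and 11.3% of all genes. The median changed sign from 0.19 to -0.12 under quantile normalization, and most of the calls ended when some library was left out. Stress and dissociation genes gave 4 of 14 called higher in epiblast, near the background of 30.3%, and 0 in visceral endoderm (2 and 1 after quantile normalization, 2 kept without each library), and Fos was listed at 0 in all 4 libraries.

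Both tissues are epithelia on a shared basement membrane, and its components were mainly higher in visceral endoderm, 8 of 13 against 1 in epiblast (10 and 1 after quantile normalization). Col4a1 and Col4a2, the chains of type IV collagen, were at 3.64 and 0.775 against 44.0 and 51.0 FPKM (log2 difference -4.08, SE 0.509) and 0.584 and 0.165 against 27.1 and 24.5 (-4.30, SE 0.418), and Nid1, which joins collagen to laminin, at 0.456 and 0.264 against 8.73 and 14.1 (-3.16, SE 0.247). Of 18 genes of epithelium and cadherins, 4 were called higher in epiblast and 6 higher in visceral endoderm (3 and 9 after quantile normalization). Krt8, an intermediate filament, was at 7.70 and 5.43 against 140.1 and 90.0 FPKM (-3.92, SE 0.374) and Vil1, which bundles actin in microvilli, at 0.457 and 0 against 13.8 and 20.3 (-3.88, SE 0.271). Cldn3, a tight junction protein, was higher in epiblast, at 6.27 and 3.88 against 0.207 and 0 FPKM (2.44, SE 0.394).

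Markers of neighbouring cells were summed to see what else the libraries could hold. The 15 genes of extraembryonic ectoderm summed to 20.4 and 13.9 FPKM in epiblast and 61.1 and 66.9 in visceral endoderm, where 33.1 and 49.5 came from Eomes, and 4 were called higher in visceral endoderm and 1 in epiblast (5 and 1 after quantile normalization). Of that list, Elf5 and Hand1 were listed at 0 in both visceral endoderm libraries and Cdx2 reached at most 0.232. For 9 genes of parietal endoderm, the sums were 39.3 and 32.8 in epiblast and 264.6 and 702.8 in visceral endoderm, of which Cited1, a transcriptional co-activator, made up 213.9 and 642.1, and Thbd was listed at 0 in both visceral endoderm libraries. The 14 genes of decidua and uterus summed to 14.3 and 11.1 against 50.1 and 41.3 FPKM, led by Igfbp4 with 47.3 and 33.4 in visceral endoderm. Among 10 genes of trophoblast giant cells, Prl3d1, Prl2c2 and Tpbpa were listed at 0 in all 4 libraries, and the sum was at most 3.38, from Plac1. Blood genes summed to between 4.11 and 7.11 FPKM, with Hbb-y, Hbb-bh1 and Ptprc listed at 0, and Gata1 at 4.67 and 6.62 in visceral endoderm. The markers given here as low or listed at 0 were chosen after their values were seen, so they do not show such cells to be absent. The part of extraembryonic ectoderm, parietal endoderm, decidua and blood in the differences above was not tested.

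At E6.5 the visceral endoderm libraries held more of several epiblast markers than at E5.5, the first library most of all. Pou5f1 was at 20.9 and 2.10 FPKM there, Tdgf1 at 17.3 and 2.14, Nanog at 5.79 and 0.639 and Pim2 at 48.1 and 15.8, and the part of these transcripts in the stage differences was not tested. Fewer genes were called between the tissues at E6.5 than at E5.5, namely 1213 higher in epiblast (9.42%) and 1573 higher in visceral endoderm (12.2%), with a median difference of 0.07. Without the first visceral endoderm library of E6.5 the calls were 1072 and 1461. Genes called in the same direction at both stages numbered 1811, which is 33.8% of the E5.5 calls and 65.004% of the E6.5 calls, and 8 were called in opposite directions. The difference of the tissue differences, E5.5 minus E6.5, was called positive for 1704 genes (13.2%) and negative for 305 (2.37%). Its median moved from 0.45 to 0.05 and the calls to 573 positive and 802 negative under quantile normalization, and 566 positive and 304 negative calls were shared by both scalings. The count also rested on single libraries. Against 2009 in full, it rose without the second visceral endoderm library of E5.5 and fell when any other library of the tissues at either stage was left out.

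Of the 30 lists of tissue genes and pathways, germline genes had the most positive calls of this kind, 11 of 19 (10 after quantile normalization), against a background of 13.2%. The list was chosen with earlier results known and holds Mageb16, Tsx and Zbp1, which are among the 8 largest positive differences, so its count is no independent support. Mageb16, an X-linked antigen of testis and tumours, overlapped between the tissues at E5.5, with 10.7 and 15.7 FPKM in epiblast and 6.70 and 13.4 in visceral endoderm. A day later it was at 0.468 and 0.431 in epiblast and 30.9 and 35.05 in visceral endoderm, and the difference between stages was 4.96 (limma adjusted p = 1.55e-05). Tex19.1, a repressor of transposons in germ cells chosen after its values were seen, likewise had 22.7 and 54.5 against 16.5 and 20.1 FPKM at E5.5 and 6.43 and 5.90 against 49.3 and 49.2 at E6.5 (3.73, limma adjusted p = 6.37e-04). Both genes thus lay lower in epiblast than in visceral endoderm a day later. Zbp1 stood at 13.8 and 18.1 FPKM in E5.5 epiblast and 0 and 0.241 in E6.5 epiblast, and was listed at 0 in visceral endoderm of both stages (3.92, limma adjusted p = 2.14e-08). Dnmt3l stood at 6.45 and 5.85 FPKM in E6.5 epiblast, where E5.5 epiblast had 71.1 and 138.5, and at 2.22 and 1.28 in visceral endoderm (3.49, limma adjusted p = 8.86e-03). The naive genes Dppa2 and Dppa4 and the ligand Fgf4 had differences between stages of 3.47, 2.89 and 2.05, with Dppa4 at 7.87 and 6.60 FPKM in E6.5 epiblast.

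Primitive streak genes, a list chosen in the same way, had the most negative calls, 8 of 16 (9 after quantile normalization), against a background of 2.37%, and 0 positive. Mixl1 stood at 38.9 and 40.7 FPKM in E6.5 epiblast, against 0.174 and 0.251 at E5.5, and 107.1 and 168.4 in visceral endoderm (difference between stages -3.30, limma adjusted p = 6.27e-04). Fgf8 stood at 47.7 and 40.9 FPKM in E6.5 epiblast and 78.0 and 90.5 in visceral endoderm (-3.75, limma adjusted p = 8.54e-05). Eomes stood at 9.03 and 13.2 FPKM in E6.5 epiblast while visceral endoderm held 18.8 and 20.4 (-3.20, limma adjusted p = 8.55e-04). For these 3 genes the tissues were thus closer at E6.5, with visceral endoderm still above both epiblast libraries. Lars2, a mitochondrial leucyl-tRNA synthetase, had the most negative difference of the named genes. It stood at 74.3 and 246.5 FPKM in epiblast and 5240 and 5173 in visceral endoderm at E5.5, and at 294.5 and 132.0 against 216.7 and 76.3 at E6.5 (-5.87, limma adjusted p = 7.48e-04). Which part of the gene these reads fell on cannot be seen from FPKM, so the value need not reflect the whole transcript. Taf10, a subunit of the general transcription machinery, was likewise high in visceral endoderm of E5.5 alone of the 4 groups, at 23.4 and 21.6 FPKM, with all other libraries between 1.02 and 3.40 (-3.75, limma adjusted p = 6.27e-04).

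**Figure D5:**
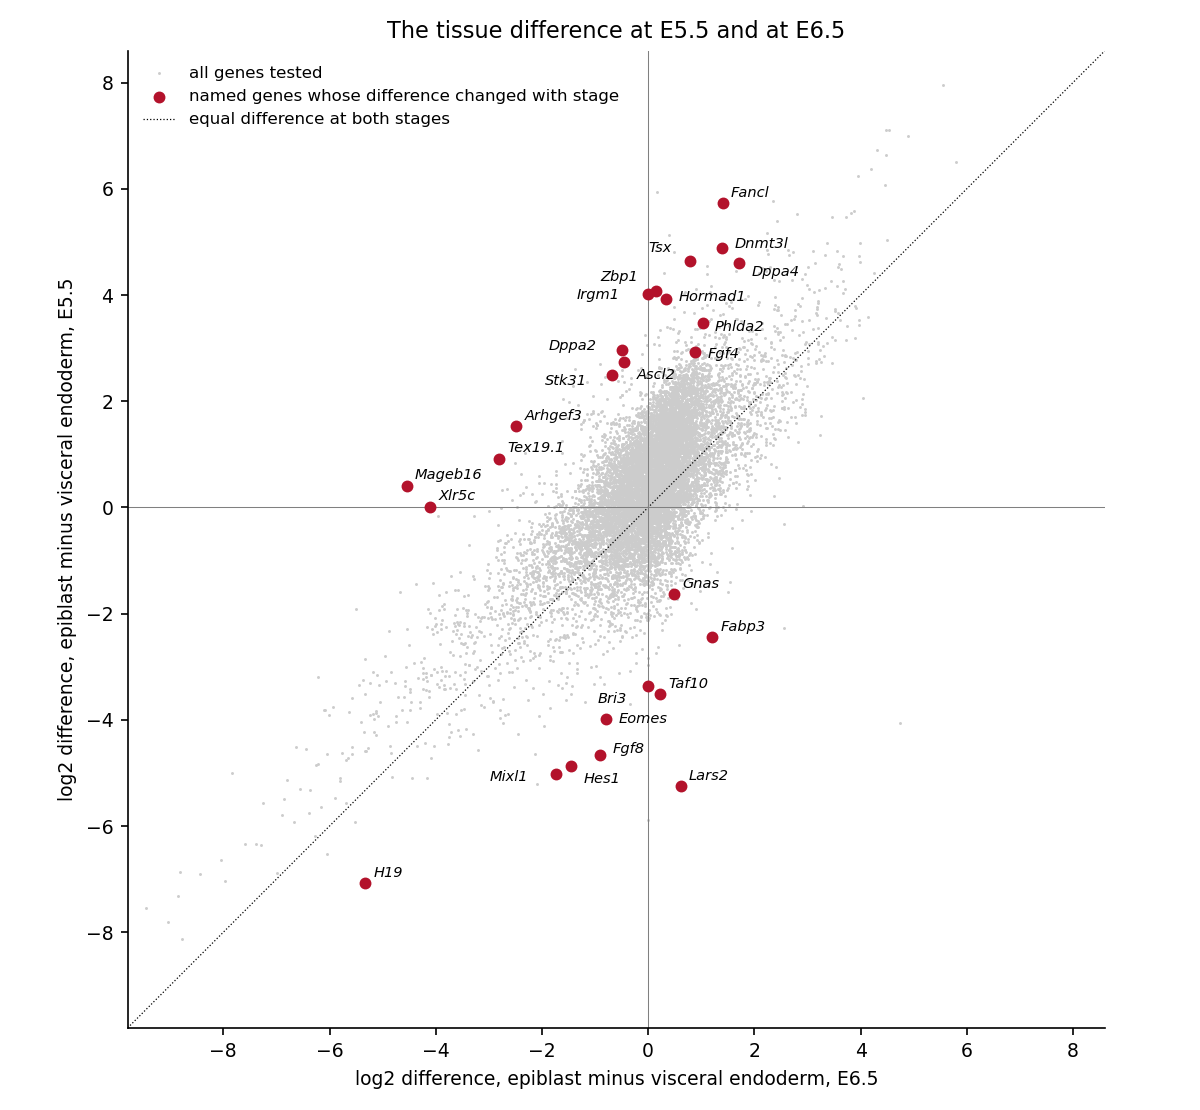
Tissue difference (log2 of FPKM + 1, epiblast minus visceral endoderm) at E6.5 on the x axis and E5.5 on the y axis for each gene tested (grey), with the named genes whose difference changed with stage in red. Points on the dotted line have equal differences, and Mageb16, Lars2 and Mixl1 lie far from it.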

How the data were processed

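The authors deposited FPKM per gene and library. The submitters' processing notes name mm9, TopHat2 2.0.11, Cufflinks 2.0.2 and CASAVA 1.8, without their roles. PolyA RNA was extracted with a column kit and amplified by a modified Smart-Seq2 protocol, per the labels' protocols.

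The in vivo table held 22613 genes. Left out were 27 symbols that had turned into dates, 4 of those lines being repeats, and 3398 values no larger than 1e-06 were set to 0. A gene was tested where 2 or more libraries reached 1 FPKM, which left 12874. The differences come from limma 3.58.1 (R 4.3.3, trended variance) on log2(FPKM+1), with all 11 groups in 1 fit, 11 residual degrees of freedom and Benjamini-Hochberg adjustment. An exact permutation test of 2 against 2 cannot pass 0.05. On data simulated for the E5.5 comparison (12874 genes, 200 changed), 26% of 2-fold and 82% of 4-fold changes were called, and 4 unchanged genes. The changes were planted only in well-expressed genes and were far fewer than the 5362 calls of the data. A 2-fold change also sits at the threshold of a call, so these shares need not apply to the data.

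Members and lists were chosen with earlier results of these data known. Named were the 12 largest calls each way (higher tissue averaging 10 FPKM or above, libraries not overlapping, call kept without any library), the markers, from each list the 6 with the lowest adjusted p, any member of the pluripotency, methylation, imprinted, anterior and Nodal lists, the 8 largest stage differences each way and the most abundant markers of other cells. Gm and Rik symbols and the like were passed over, and some genes that meet the rule are not reported here. Gata6, Alb, Xist, Slc2a3, Fos, Tex19.1, the Spry genes, Spred1, Lrp2, Fcgrt and the low markers of other cells were chosen after their values were seen. So were the Fgfr genes, Id1 and Id2. The alternatives tried changed the pseudocount to 0.1, the minimum to none or to 5 FPKM, the scaling to quantile normalization, and the fit to a replicate block, array weights, only the groups compared or 15 groups from 3 expression tables. Each library was also left out, the lone one being assumed to vary like other groups. Figures and promoter searches ran in Python 3.11.15 (matplotlib 3.10.9, numpy 2.4.6, pandas 2.3.3).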

Additional observations from a re-analysis of the deposited data

Results flagged for a closer look

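Named for the stage comparison were 26 genes whose tissue difference changed between E5.5 and E6.5 by a test of the difference itself. That difference is given as E5.5 minus E6.5 on the log2 scale. They were picked from the 566 positive and 304 negative calls shared by both scalings, so 26 does not count all such genes. Other genes of the report, such as Pla2g1b (3.41), Prps1 (2.43) and Folr1 (2.29), were also called by that test under both scalings. Each of the 26 was also called under quantile normalization. The calls held with each of 8 libraries left out in turn, except H19 (7 of 8) and Fabp3 (6 of 8). The report gives the library values of Mageb16 (4.96), Tex19.1 (3.73), Zbp1 (3.92), Dnmt3l (3.49), Dppa2 (3.47), Dppa4 (2.89), Fgf4 (2.05), Mixl1 (-3.30), Fgf8 (-3.75), Eomes (-3.20), Lars2 (-5.87) and Taf10 (-3.75).

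Among the other positive differences, Fancl (4.32) stood at 39.2 and 37.6 FPKM in E6.5 epiblast and 15.7 and 12.3 in visceral endoderm, where it had been near 0 at E5.5. Xlr5c (4.12), an X-linked gene with close relatives that can share reads, was at 0 in both E6.5 epiblast libraries and at 15.7 and 16.6 FPKM in visceral endoderm. Arhgef3 (4.02), an activator of small GTPases, was at 9.26 and 18.2 FPKM in E5.5 epiblast and 0.778 and 0.792 at E6.5. Irgm1 (4.02), an immunity GTPase, was at 12.02 and 25.5 FPKM in E5.5 epiblast and 3.55 and 2.95 at E6.5. Tsx (3.85) was at 17.4 and 33.0 FPKM in E5.5 epiblast and 0.480 and 1.03 at E6.5. Hormad1 (3.58) and Stk31 (3.17), a kinase-like protein of germ cells, were at 1.02 and 1.02 and at 1.05 and 0.952 FPKM in E6.5 epiblast. Ascl2 (3.18) was at 1.28 and 1.197 FPKM in E6.5 epiblast and 2.03 and 2.09 in visceral endoderm. Phlda2 (2.46) held 20.1 and 23.4 FPKM in E6.5 epiblast, and visceral endoderm reached 9.83 and 10.4.

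Among the negative differences, Fabp3 (-3.65), a fatty acid carrier, was at 7.13 and 30.3 FPKM in E5.5 visceral endoderm and 1.09 and 1.59 at E6.5. Hes1 (-3.42), a transcriptional repressor, was at 74.8 and 36.8 FPKM in E5.5 visceral endoderm and 24.6 and 23.0 at E6.5. Bri3 (-3.35), a membrane protein, was at 56.1 and 78.6 FPKM in E5.5 visceral endoderm and 4.03 and 5.21 at E6.5. Gnas (-2.12), an imprinted G protein subunit, was at 176.8 and 194.1 FPKM in E5.5 visceral endoderm and 72.0 and 81.0 at E6.5. H19 (-1.75) was at 283.2 and 310.5 FPKM in E5.5 visceral endoderm and 124.3 and 137.6 at E6.5. Hnrnpa1, whose pseudogenes can take its reads, had a difference of 4.72 (limma adjusted p = 0.0329) that was called in 2 of 8 leave-outs and not under quantile normalization.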

How the results depend on the processing

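The E5.5 count of 5362 called genes stayed within 1.5 times under each alternative, from 4896 to 5538 with a library of E5.5 left out and from 4599 (filter at 5 FPKM) to 6541 (pseudocount 0.1) otherwise. The E6.5 count of 2786 ran from 2209 to 2808 with a library left out. The count of differences between stages, 2009, was 819 in the fit of 15 groups and ran from 449 to 2699 with a library left out, and the cause was not tested. With the replicate block the 3 counts were 5366, 2783 and 1820, and the block moved none of them by over 1.5 times. Same-numbered libraries of the tissues deviated together with r = 0.103 at E5.5 and 0.122 at E6.5 over 9934 genes, and with 2 pairs they share only a number. Over 509 genes of the lists and the named genes, between 16 and 34 calls at E5.5 were lost with a library left out and at most 36 under another alternative. A single difference reversed, that of Xlr5c, which was 0.02 and not called in full and -1.28 (limma adjusted p = 0.0177) without the first visceral endoderm library of E5.5, and 1.31 without the second. Depth is unknown, so no limit from counting could be set for low genes.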
